A study of Mus musculus with 8 samples.

Results

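The step from apical to intermediate progenitors was examined in wildtype mouse cortex as the difference between 2 clusters of nuclei, cluster 4, taken as apical progenitors, and cluster 5, taken as intermediate progenitors, within each of the 4 wildtype samples. Members were taken by the deposited cluster number and the wildtype label, which gave 8593 nuclei of the 33781 wildtype nuclei and of the 67319 nuclei of the whole series. Of these, 4762 lay in cluster 4 (1658, 1152, 787 and 1165 in replicates 1 to 4) and 3831 in cluster 5 (1140, 929, 660 and 1102). The clusters were compared as they stood at 1 age, so the step is a difference between populations and no cell was followed through it.

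The study isolated nuclei from flash-frozen dorsal telencephalon of C57BL/6J embryos at E15.5 and sequenced their RNA by a droplet method that tags each molecule with a unique molecular identifier (UMI). The 8 samples were 4 wildtype and 4 Pantr2 knockout (Pantr2-/-) libraries, Pantr2 being a long noncoding RNA gene; the wildtype libraries carry no allele or treatment named in the labels. Neither Pantr2 nor Sox2 nor Neurog1 was analysed here. The labels do not say that samples were separate animals, so p-values measure the spread between libraries only.

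Apical progenitors, or radial glia, line the ventricle of the embryonic cortex, are anchored there by adherens junctions, and are kept undifferentiated by Notch signals received from their neighbours. Some of their daughters lose the apical contact, switch on the transcription factor Eomes (Tbr2) and become intermediate progenitors, which divide away from the ventricle and give rise mostly to pairs of excitatory neurons. The change therefore involves genes for adhesion, Notch reception, the cell cycle and the first neuronal programme, and the lists below were ordered along those roles.

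Depth differed between the clusters. The 4 sums of cluster 4 held 2662845 to 4764398 UMIs and those of cluster 5 held 1801004 to 2742158, and the median nucleus had 2652 to 3113 UMIs in cluster 4 against 2106.5 to 2464.5 in cluster 5. Pairs of wildtype libraries shared 11 to 24 cell barcodes. Median deposited doublet scores were 0.0965 to 0.114 in cluster 4 and 0.0700 to 0.117 in cluster 5. Levels of single genes are given as CPM, the UMIs of a gene as a share of all UMIs of the sum on the usual counts-per-million scale, with the sums scaled to one another by edgeR's TMM method. Summed levels of gene lists are CPM of library totals without that scaling.

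How the clusters were drawn is not given in the sources used here; if they were drawn from the expression of these nuclei, a difference between them is built into their definition. The p-values given here measure how steady a difference was over the 4 samples and are no independent evidence that the clusters differ. In edgeR's quasi-likelihood test with the sample as a block and Benjamini-Hochberg adjustment, 6553 of 11414 genes tested (57.4%) passed an adjusted p of 0.05. Of the tested genes, 3151 were higher in cluster 5 (27.6%) and 3402 lower (29.8%), and the median log2 fold change over all genes was 0.02. With library totals in place of TMM, 2460 were higher and 3918 lower, and the median was -0.07. With a fold of at least 2 as well, 606 genes were higher (5.31%) and 1512 lower (13.2%), so that a call alone says little about any gene list and the size and direction are given for each. The samples of the clusters did not overlap for 5296 genes (46.4%).

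The labels of the clusters were first set against marker genes. Over the 19 radial glia genes in the table, the summed level was 4486 to 5086 CPM in the samples of cluster 4 and 1398 to 1955 CPM in those of cluster 5. Over the 13 intermediate progenitor genes it was 907 to 1088 CPM in cluster 4 and 2356 to 2836 CPM in cluster 5. Neither pair of ranges overlapped. The intermediate progenitor genes were lower again in cluster 1, at 1068 to 1199 CPM. The radial glia genes stood at 1941 to 2312 CPM in cluster 1, not below cluster 5. Their summed level therefore did not set cluster 5 apart from a neuronal cluster. A sum is weighted to abundant genes, and its members differed. Ptprz1 was higher in cluster 1 than in cluster 5 and Pax6 was lower (both given below).

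Single nuclei gave a more mixed picture of cluster 5. With each nucleus thinned to 1400 UMIs, an Eomes UMI was found in 9.36% ± 3.33 (SD, n = 4) of cluster 5 nuclei, 3.41% ± 0.607 of cluster 4 nuclei and 1.23% ± 0.268 of cluster 1 nuclei (17.1%, 7.07% and 2.22% without thinning). Cluster 1, whose neuronal marker Neurod2 was seen in 33.5% of nuclei, is given as a neuronal comparison. Whether its UMIs were free RNA or the nuclei's own was not tested. In cluster 3, with Neurod2 in 26.6% of nuclei, an Eomes UMI was found in 1.10% ± 0.254. A UMI of Top2a, the DNA topoisomerase of dividing cells, was found in 36.1% ± 4.99 of cluster 4 nuclei and in 3.36% ± 0.535 of cluster 5 nuclei. The latter was near the 3.86% ± 0.674 of cluster 1 and the 2.65% ± 0.260 of cluster 3. Neurod2 was seen in 14.7% of cluster 4 nuclei and 24.9% of cluster 5 nuclei. At this depth most nuclei of either cluster showed no UMI of any one marker, so the share of true intermediate progenitors in cluster 5 could not be counted. The low share of Eomes settles nothing about identity, since Pax6 was about as sparse in cluster 4 (given below). Top2a lay near its cluster 1 share and Neurod2 above its cluster 4 share, so cluster 5 is not read as dividing intermediate progenitors alone. The clusters are called by their numbers below.

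Pax6 in turn was seen in 8.23% ± 0.431 of cluster 4 nuclei, 3.53% ± 0.639 of cluster 5 nuclei and 0.908% ± 0.371 of cluster 1 nuclei after thinning.

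The clusters held different phases of the cell cycle. The deposited cell cycle angle, a tricycle position by its column name, puts each nucleus on a circle on which the stretch from 7/4 π through 0 to 1/4 π was read as G1 or G0. At that angle lay 10.4% ± 3.62 of cluster 4 nuclei and 66.0% ± 3.98 of cluster 5 nuclei, close to the 74.4% ± 2.11 of cluster 1 (SD, n = 4). S-phase angles held 47.7% ± 2.95 of cluster 4 and 12.7% ± 2.16 of cluster 5, and angles of G2 and mitosis 36.8% ± 2.72 and 11.6% ± 1.33. The difference had the same sign in 4 of 4 samples for each phase, and the exact two-sided sign permutation test over the 4 pairs gave p = 0.125 for each, the smallest it can give (0.125 after adjustment over 3 phases). Since a cluster of cycling progenitors and one mostly at G1/G0 angle were compared, the lists are given over all nuclei first and later for nuclei at G1/G0 angle alone. The tricycle method computes the angle from a nucleus's own RNA of cell cycle genes, so choosing nuclei by angle also chooses them by the RNA of those genes.

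**Figure D1:**
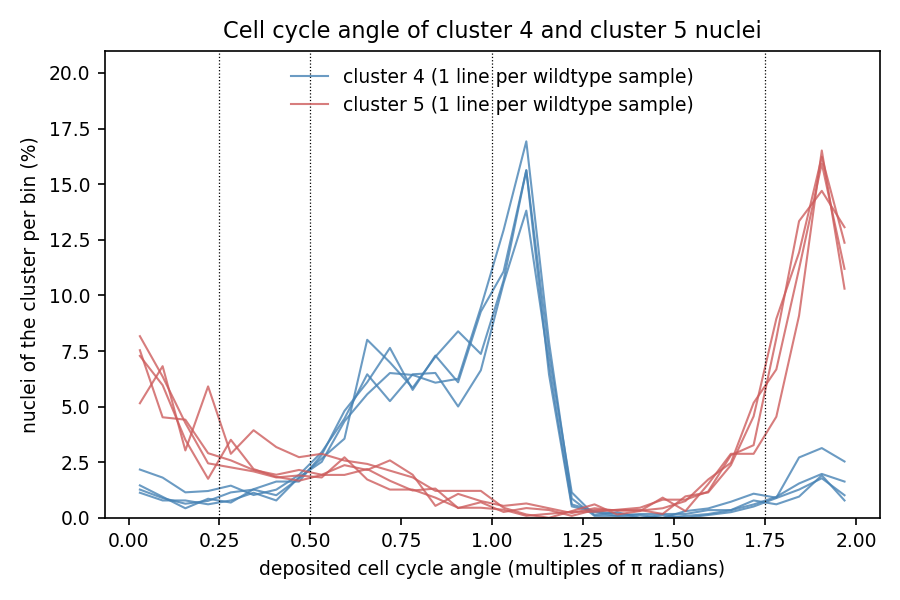
Share of nuclei (%) per bin of the deposited cell cycle angle (multiples of π radians) in cluster 4 (blue) and cluster 5 (red), 1 line per wildtype sample; dotted lines mark the limits used for G1/G0, S and G2/M. In every sample cluster 4 nuclei pile up at S and G2/M angles, 10.4% lying at G1/G0 angle on average, while 66.0% of cluster 5 nuclei lie at G1/G0 angle.

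**Figure D2:**
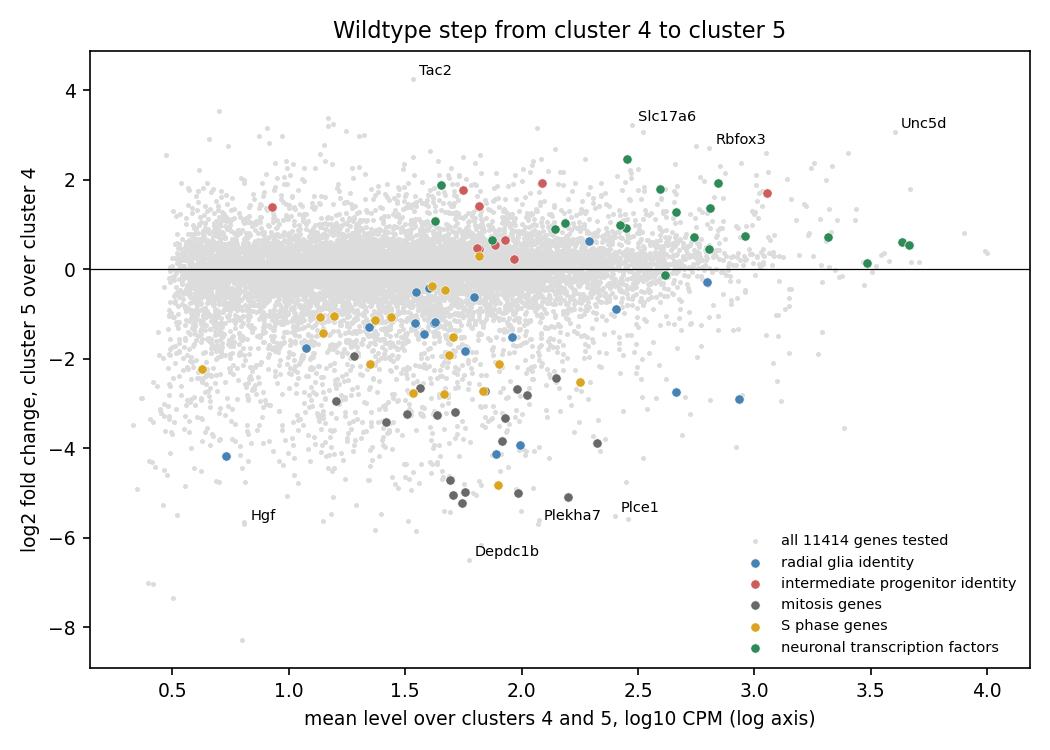
Log2 fold change of cluster 5 over cluster 4 against the mean level (log10 CPM) for all 11414 genes tested, with 5 gene lists in colour and 8 genes named. All 20 mitosis genes and 18 of 19 radial glia genes lie below 0, and all 10 intermediate progenitor genes lie above it.

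As examples, 3 promoter windows that hold motifs of Notch pathway or proneural factors are printed (chosen after the motifs were seen). Each is the 250 bases before a start site on the gene's own strand, from RefSeq (GRCm38.p6). Capitals mark matches on either strand to GTGGGAA (the site bound by RBPJ, the DNA-binding partner of the Notch receptor's cleaved domain), CAGATG and CAGCTG (E-boxes, bound by proneural bHLH factors) and CACNAG (the N-box, bound by Hes repressors). Hes5, a Notch target lost at the step, lies at chr4:154960673-154960922 on the plus strand and holds GTGGGAA 2 times. Nhlh2, a bHLH gene of the intermediate progenitor list, lies at chr3:102009895-102010144 on the plus strand and holds 1 match to GTGGGAA, 1 to CAGATG and 1 to CACNAG. Tac2, the gene with the largest increase, lies at chr10:127724228-127724477 on the plus strand, with 1 match to CAGCTG and 2 to CACNAG.
Hes5: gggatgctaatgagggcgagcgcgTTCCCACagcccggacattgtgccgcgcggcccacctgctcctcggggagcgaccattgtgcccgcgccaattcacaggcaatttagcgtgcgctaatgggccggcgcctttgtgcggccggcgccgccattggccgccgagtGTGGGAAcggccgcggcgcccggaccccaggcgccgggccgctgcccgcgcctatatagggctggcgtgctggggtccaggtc
Nhlh2: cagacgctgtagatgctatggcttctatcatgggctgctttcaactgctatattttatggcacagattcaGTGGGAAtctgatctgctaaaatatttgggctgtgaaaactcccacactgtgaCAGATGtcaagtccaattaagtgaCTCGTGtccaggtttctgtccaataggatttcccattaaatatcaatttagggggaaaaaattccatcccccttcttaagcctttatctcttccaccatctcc
Tac2: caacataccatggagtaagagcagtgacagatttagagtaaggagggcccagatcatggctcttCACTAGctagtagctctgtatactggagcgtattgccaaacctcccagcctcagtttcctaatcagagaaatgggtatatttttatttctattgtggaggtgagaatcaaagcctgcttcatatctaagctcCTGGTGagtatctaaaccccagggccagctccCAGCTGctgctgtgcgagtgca

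Over genes with a promoter window in that table (8966 of 11414), GTGGGAA was present in 5.36%. The share was 3.83% of 444 windows of genes that rose at least 2-fold and 6.92% of 1141 windows of genes that fell at least 2-fold. CAGATG was found in 9.30% of all windows, 11.7% of the windows of genes that rose and 9.82% of those that fell, and CAGCTG in 11.1%, 14.0% and 12.4%. CACNAG was found in 34.6%, 35.6% and 32.5%. These shares are descriptions of letters in a window and carry no test.

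Genes that mark the apical state fell together. Of the 19 radial glia genes tested, 18 fell and 1 rose, with a median log2 fold change of -1.28 against 0.02 for all genes. Slc1a3, the glial glutamate transporter GLAST, stood at 867, 744, 791 and 791 CPM in replicates 1 to 4 of cluster 4 and at 134, 96.1, 143 and 111 CPM in cluster 5. Every cluster 4 sample lay several-fold above every cluster 5 sample, a log2 fold change of -2.74 ± 0.07 (SE; edgeR adjusted p = 9.99e-17). Ptprz1, a receptor phosphatase, fell from 1515 ± 61.7 to 208 ± 50.7 CPM (-2.89 ± 0.09) and was at 945 to 1345 CPM in cluster 1, so that cluster 5 was the lowest of the 3. Tnc, an extracellular matrix glycoprotein of the ventricular zone, fell from 148 ± 14.0 to 7.94 ± 3.09 CPM (SD, n = 4; log2 fold change -4.13).

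Pax6, the transcription factor by which apical progenitors are usually stained, changed less. Its level was 58.0, 57.0, 56.5 and 63.9 CPM in cluster 4 and 30.4, 22.3, 17.6 and 29.4 CPM in cluster 5, a log2 fold change of -1.21 ± 0.11 (edgeR adjusted p = 1.74e-08). The samples did not overlap, and cluster 5 kept more Pax6 RNA than cluster 1, at 4.40 to 9.02 CPM. Pax6 overlaps the antisense gene Pax6os1, and without a stated use of strand their UMIs cannot be told apart. The transcription factor Sox9 fell by 1.17, the helix-loop-helix inhibitor Id4 by 1.51 and the intermediate filament gene Vim by 0.89 on the log2 scale. Fabp7, a fatty acid binding protein of radial glia, fell by only 0.27 on the log2 scale, from 682 ± 131 to 565 ± 113 CPM, and its samples overlapped between clusters; without the sample block its adjusted p in edgeR was 0.118. The member that rose was Lhx2, a cortical selector transcription factor, from 153 ± 12.5 to 238 ± 11.8 CPM (log2 fold change 0.64 ± 0.06).

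All 10 tested members of the intermediate progenitor list rose, with a median log2 fold change of 1.02. Eomes, the T-box factor that defines these cells, was at 28.5, 23.1, 30.4 and 20.9 CPM in cluster 4 and at 118, 73.0, 65.4 and 87.7 CPM in cluster 5. The lowest cluster 5 sample was above the highest cluster 4 sample, and the log2 fold change was 1.78 ± 0.12 (edgeR adjusted p = 1.64e-10). In cluster 1 Eomes was back at 8.83 to 10.9 CPM. Eomes overlaps the gene model Gm33460, with which its UMIs may be shared.

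Mfap4, a microfibril-associated protein, rose from 51.1 ± 14.3 to 194 ± 47.3 CPM (log2 fold change 1.93 ± 0.07) and was at 19.4 CPM in cluster 1. Elavl2, an RNA-binding protein of the Hu family, rose by 1.71. The proneural bHLH factor Neurog2 rose less, from 92.6, 65.7, 53.2 and 52.2 CPM in cluster 4 to 143, 94.8, 79.6 and 96.0 CPM in cluster 5. Each sample rose by itself while the ranges overlapped, and the log2 fold change was 0.66 ± 0.07 (edgeR adjusted p = 3.07e-07). Insm1, a zinc-finger factor of delaminating progenitors, rose by 0.47 ± 0.08, Gadd45g by 0.55 ± 0.07 and the antiproliferative gene Btg2 by 0.22 ± 0.07. The call of Btg2 was lost without wildtype replicate 1 (edgeR adjusted p = 0.0855).

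**Figure D3:**
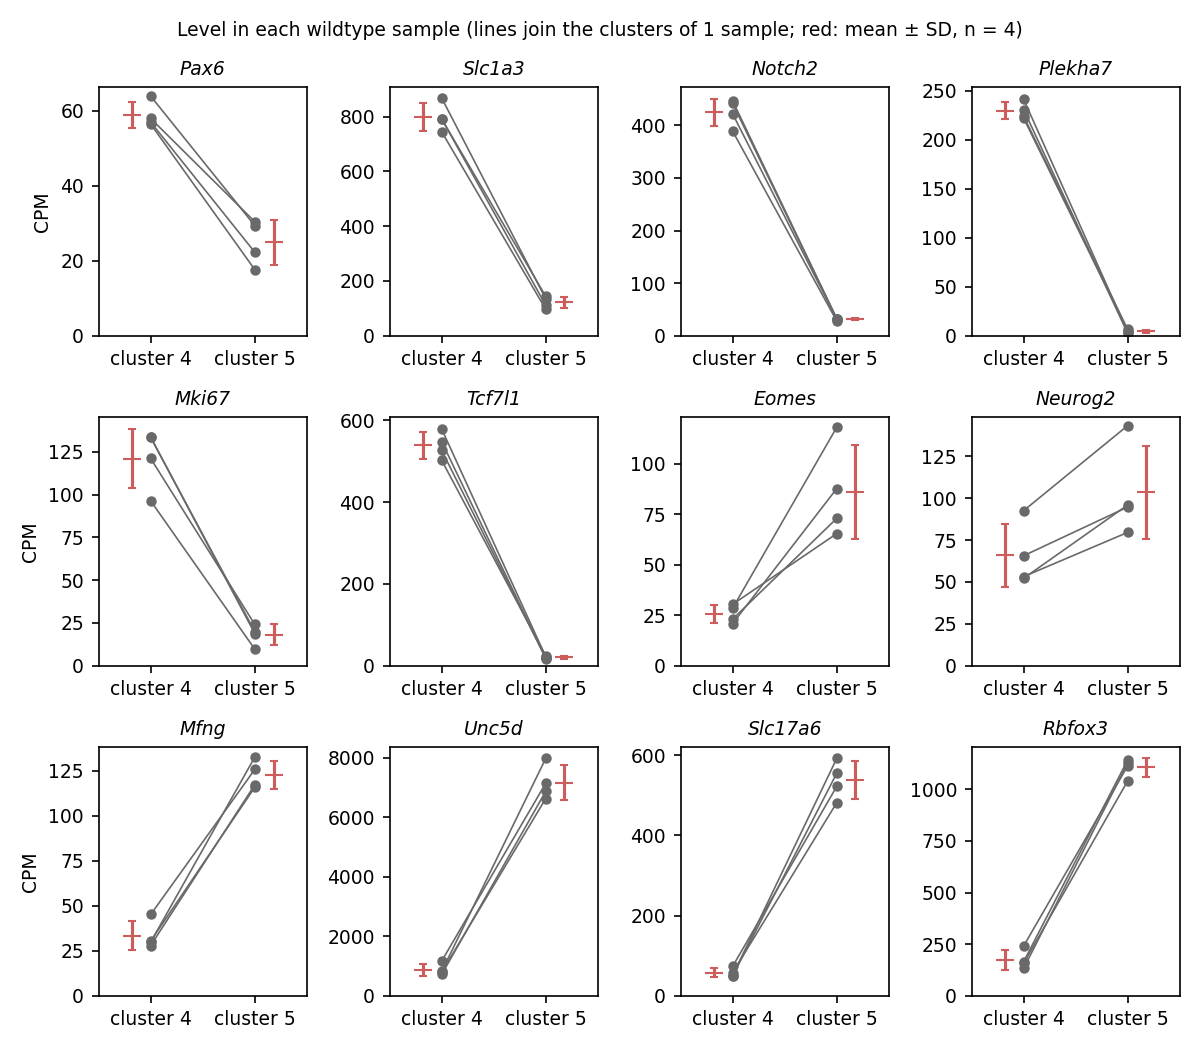
Level (CPM) of 12 genes in clusters 4 and 5 of each wildtype sample; grey lines join the clusters of 1 sample and red bars give the mean ± SD (n = 4). Pax6, Slc1a3, Notch2, Plekha7, Mki67 and Tcf7l1 fall and Eomes, Neurog2, Mfng, Unc5d, Slc17a6 and Rbfox3 rise in 4 of 4 samples, and only for Neurog2 do the samples of the clusters overlap.

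All 3 Notch receptors tested fell, with a median log2 fold change of -3.78. Notch2 stood at 389, 422, 447 and 442 CPM in cluster 4 and at 27.9, 31.5, 32.4 and 32.0 CPM in cluster 5, with narrow spreads and no overlap (log2 fold change -3.78 ± 0.07; edgeR adjusted p = 2.20e-18). Notch3 fell from 82.9 ± 9.65 to 4.05 ± 1.31 CPM (log2 fold change -4.30) and Notch1 from 61.7 ± 4.75 to 14.0 ± 1.80 CPM (-2.12). The fourth receptor gene, Notch4, had too few UMIs to be tested. Notch1 overlaps the gene model 0610009E02Rik, with which its UMIs may be shared.

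Ligands went separate ways. Jag1, a ligand made by the receiving progenitors themselves, fell from 46.6 ± 6.81 to 12.5 ± 3.33 CPM (log2 fold change -1.94 ± 0.13). Dll3, a Delta-type ligand that acts inside the cell, rose from 5.69 ± 1.04 to 15.3 ± 4.08 CPM (1.37 ± 0.21), and Dll1, which signals to neighbours, from 8.94 ± 3.41 to 13.9 ± 2.87 CPM (0.63 ± 0.21; edgeR adjusted p = 0.0160) with overlapping samples. The call of Dll1 was lost without wildtype replicate 2 (edgeR adjusted p = 0.112) or 4 (0.101). Dll4 and Jag2 were too low to be tested.

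The Fringe glycosyltransferases, which set how receptors respond to each ligand type, moved in opposite directions. Lfng was at 36.2, 33.1, 36.6 and 37.0 CPM in cluster 4 and at 2.90, 1.31, 3.41 and 1.88 CPM in cluster 5 (log2 fold change -3.92 ± 0.20; edgeR adjusted p = 2.88e-12). Mfng was at 45.1, 30.4, 27.9 and 29.7 CPM in cluster 4 and at 126, 116, 117 and 133 CPM in cluster 5 (1.86 ± 0.10; edgeR adjusted p = 3.56e-12). Neither gene's samples overlapped, and Mfng was lower again in cluster 1, at 20.9 to 22.0 CPM. The coactivators split likewise: Maml2 fell from 905 ± 53.1 to 233 ± 7.16 CPM and Maml3 rose from 265 ± 9.89 to 514 ± 30.9 CPM. Of the 10 modulators and nuclear partners tested, 7 rose and 3 fell, with a median log2 fold change of 0.32. Rbpj, the DNA-binding partner, rose by 0.35 and Numbl, a membrane-bound antagonist of Notch, by 1.10, while its relative Numb fell by 0.17 on the log2 scale, a call lost without wildtype replicate 1 (edgeR adjusted p = 0.0550).

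Of 3 Notch target genes tested, 2 fell and 1 did not pass, with a median of -1.44. Hes5, whose promoter window is printed above, was at 65.3, 57.3, 40.5 and 58.7 CPM in cluster 4 and at 29.0, 19.2, 17.1 and 16.6 CPM in cluster 5 (log2 fold change -1.44 ± 0.12; edgeR adjusted p = 2.71e-09). Hes1 fell from 18.1 ± 2.56 to 5.61 ± 3.29 CPM (-1.75 ± 0.24). For neither gene did the samples overlap. Hes5 in cluster 5 was near its cluster 1 level of 12.5 to 25.4 CPM.

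Junction and polarity genes changed unevenly. Plekha7, which ties the adherens junction to microtubules, was at 242, 222, 231 and 224 CPM in cluster 4 and at 3.62, 4.81, 2.27 and 6.40 CPM in cluster 5. No other member of the list changed as much, and the log2 fold change was -5.69 ± 0.12 (edgeR adjusted p = 1.76e-17). Crb2, the apical Crumbs protein, fell by 3.92, its binding partner Pals1 by 1.42, Nectin3 by 1.74 and the tight junction scaffold Tjp1 by 1.10 on the log2 scale. Crb2 overlaps Dennd1a, with which its UMIs may be shared.

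The core of the cadherin complex changed little. Cdh2 (N-cadherin) fell by 0.26 on the log2 scale, from 1384 ± 51.9 to 1158 ± 65.5 CPM, and Ctnnb1 (β-catenin) rose by 0.27 ± 0.11 with overlapping samples (edgeR adjusted p = 0.0497), a call lost without wildtype replicate 1, 2 or 3 (0.100, 0.238 and 0.107). The α-catenins changed in opposite directions: Ctnna1, the epithelial form, fell from 290 ± 18.3 to 183 ± 4.05 CPM, and Ctnna2, the neuronal form, rose from 1707 ± 135 to 3676 ± 142 CPM (log2 fold change 1.11 ± 0.05). Of the 15 members tested, 9 fell, 3 rose and 3 did not pass, with a median of -0.39. The summed level of the 17 members in the table was higher in cluster 5, at 6076 to 6388 CPM against 5520 to 5690 CPM in cluster 4. It was 6791 to 7092 CPM in cluster 1. Such a sum is weighted to abundant genes, Ctnna2 among them.

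Among factors linked to delamination, the zinc-finger repressors Scrt2 and Scrt1 rose. Scrt2 went from 23.7, 28.2, 21.4 and 24.3 CPM in cluster 4 to 108, 110, 106 and 114 CPM in cluster 5 (log2 fold change 2.16 ± 0.09; edgeR adjusted p = 5.79e-14), and the samples did not overlap. Scrt1 rose by 1.02 ± 0.11. The related pair Zeb1 and Zeb2 moved apart: Zeb1 fell from 623 ± 37.7 to 337 ± 28.1 CPM (-0.89) and Zeb2 rose from 589 ± 29.5 to 796 ± 76.0 CPM (0.43). Of 5 members tested, 4 rose and 1 fell.

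Growth factor pathways of the ventricular zone fell almost throughout: of 21 Wnt, FGF and Hedgehog genes tested, 18 fell, 2 rose and 1 did not pass, with a median of -1.51. Tcf7l1, a repressor of Wnt target genes, was at 548, 579, 502 and 526 CPM in cluster 4 and at 17.4, 21.8, 23.9 and 18.4 CPM in cluster 5 (log2 fold change -4.75 ± 0.08; edgeR adjusted p = 2.04e-18). Gli3, the Hedgehog pathway repressor, fell from 1542 ± 89.0 to 222 ± 8.28 CPM (-2.80 ± 0.06). The FGF-responsive ETS factors Etv4 and Etv5 fell by 4.14 and 3.50 and the receptors Fgfr1, Fgfr2 and Fgfr3 by 1.09, 1.63 and 2.15 on the log2 scale. The Hedgehog genes Gli2 and Ptch1 fell by 1.37 and 2.45, and the Wnt pathway genes Lef1 and Axin2 by 0.47 and 1.02 on the log2 scale. Among Wnt ligands, Wnt7a fell from 33.1 ± 3.09 to 2.37 ± 0.715 CPM while Wnt7b rose from 46.1 ± 5.47 to 69.1 ± 6.54 CPM (0.59 ± 0.08). At G1/G0 angle Wnt7b was at -0.07. The other member that rose was the receptor gene Fzd3, by 0.62 ± 0.05.

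Genes of proliferation fell widely. All 20 mitosis genes fell, with a median log2 fold change of -3.28, among them Top2a (-3.89 ± 0.08), Kif11 (-5.08 ± 0.09), a spindle motor, and the proliferation marker Mki67 (-2.71 ± 0.11). Of 18 S-phase genes tested, 17 fell, with a median of -1.70. Mcm7, a subunit of the replicative helicase, rose by 0.30 ± 0.08 while its partner Mcm6 fell by 1.5 on the log2 scale. The call of Mcm7 was lost without wildtype replicate 1 (edgeR adjusted p = 0.0547). Mcm7 overlaps Cops6 and Ap4m1, with which its UMIs may be shared. Brip1, a DNA repair helicase, and Pola1, a subunit of DNA polymerase α, fell by 4.82 and 2.51. Of 19 cyclins, kinases and inhibitors, 12 fell, 3 rose and 4 did not pass, with a median of -0.81. The G1 cyclin Ccnd2 fell from 164 ± 17.2 to 78.9 ± 11.1 CPM and its kinase Cdk6 from 241 ± 9.89 to 138 ± 21.3 CPM. The inhibitor Cdkn1c rose from 24.4 ± 4.94 to 39.7 ± 3.63 CPM (0.71 ± 0.11), and the kinase Cdk4 and the retinoblastoma gene Rb1 rose by 0.29 and 0.21. The call of Rb1 was lost in DESeq2 (adjusted p = 0.0925) and, in edgeR, with library totals only (adjusted p = 0.0840). The mitotic kinase Cdk1 fell by 2.31 on the log2 scale and was at 0.76 ± 0.48 at G1/G0 angle.

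The step was also taken within a single range of cycle position, inside which angles were not matched. Among nuclei at G1/G0 angle, 8436 genes could be tested and 2444 passed (29%), 1085 higher (12.9%) and 1359 lower (16.1%) in cluster 5. Of the 606 genes that rose at least 2-fold over all nuclei, 471 could be tested at this angle; 469 had the same direction, 415 passed in it and 0 in the other. The median change of those 471 was 1.40 over all nuclei and 1.31 at G1/G0 angle. Of the 1512 that fell at least 2-fold, 779 could be tested, 744 had the same direction, 657 passed in it and 2 in the other (medians -1.71 and -1.76). The nuclei at this angle are part of all nuclei, so these counts are a description and no second sample.

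For mitosis and S-phase genes this comparison is a description with no test, since the angle is computed from such genes. Only 5 mitosis genes were counted well enough at G1/G0 angle, and their log2 fold changes were 0.12 ± 0.34 for Top2a, 0.16 ± 0.36 for Mki67, -0.27 ± 0.38 for Cenpf, -0.36 ± 0.24 for Smc4 and -0.76 ± 0.30 for Nusap1. The median of 12 S-phase genes was -0.41. Of 18 radial glia genes, 14 fell and 1 rose, with a median of -1.42, Slc1a3 at -3.06 ± 0.11 and Tnc at -4.28 ± 0.23. All 3 Notch receptors fell (median -3.70), Plekha7 stood at -5.23 ± 0.24 and Tcf7l1 at -4.85 ± 0.15.

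The intermediate progenitor list split at G1/G0 angle: of 9 genes tested, 4 rose, 2 fell and 3 did not pass, with a median of 0.21. Among those that rose were Eomes (1.36 ± 0.22), Mfap4 (1.81 ± 0.18) and Elavl2 (1.28 ± 0.11). Btg2 (-0.57 ± 0.15; edgeR adjusted p = 0.00370) and Gadd45g (-0.47 ± 0.16; edgeR adjusted p = 0.0316) fell, turning from their direction over all nuclei. Neurog2 was at -0.06 ± 0.17, Insm1 at 0.21 ± 0.17 and the Hes-related gene Hes6 at 0.01 ± 0.17. Cluster 4 gave few nuclei at this angle, 67 to 259 per sample.

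The other lists were counted at G1/G0 angle in the same way. Of 20 neuronal transcription factors, 18 rose and 0 fell (median 0.74), and of 19 migration genes 11 rose and 1 fell (0.38). Of 19 Wnt, FGF and Hedgehog genes, 15 fell and 1 rose (-1.68), and of 14 junction and polarity genes 7 fell and 1 rose (-0.30). RNA-binding factors had 9 of 19 rising and 4 falling (0.35). Of 10 Notch modulators and partners 3 rose and 3 fell, both Notch targets tested fell, and Jag1, the 1 ligand tested, fell. Of 5 delamination factors, Scrt2 and Scrt1 rose and Zeb1 fell. Of 11 cyclins, kinases and inhibitors, Rb1 rose and Ccnd2 and Cdk6 fell; these are cycle genes too, so their values are a description. Of the BAF subunits, 1 of 4 neuronal ones rose and 1 fell, and 0 of 2 progenitor ones passed in edgeR (0 with an unadjusted p under 0.05).

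Several genes called over all nuclei did not pass at G1/G0 angle, where fewer nuclei were summed. In edgeR, Rbpj was at 0.0086 (adjusted p = 0.977), Zeb2 at 0.13 (0.307), Insm1 at 0.21 (0.409) and Cdh2 at -0.14 (0.244). Ss18l1 was at 0.50 (edgeR adjusted p = 0.200), its counterpart Ss18 at -0.39 (0.152) and Gad2 at -0.61 (0.121). The cycle genes Cdk4 and Cdkn1c were at 0.020 and 0.53, and Dpf2, Ctnnb1 and Hbb-bs at 0.23, 0.55 and 0.12, also without passing.

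**Figure D4:**
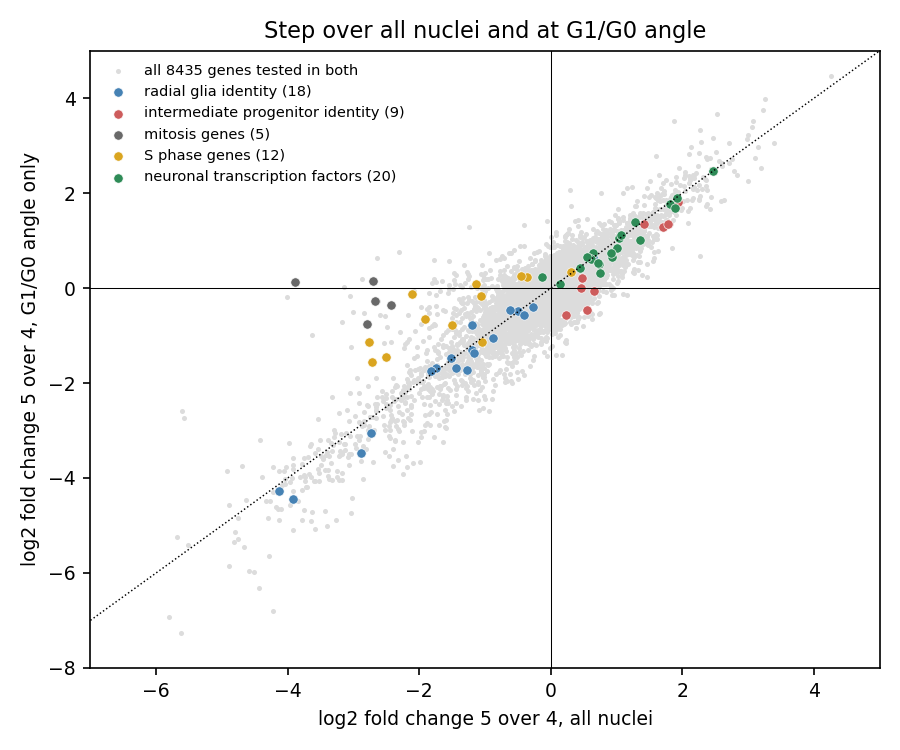
Log2 fold change of cluster 5 over cluster 4 among nuclei at G1/G0 angle against that over all nuclei, for the 8435 genes tested in both; 5 gene lists are coloured with the number of members shown, and the dotted line marks equal values. Radial glia genes and neuronal transcription factors lie along the line, while the 5 mitosis genes and several S-phase genes lie near 0 on the G1/G0 axis.

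Neuronal transcription factors rose: of 20 tested, 19 rose and 1, Cux1, fell by 0.13 on the log2 scale, with a median of 0.92. The call of Cux1 was lost without any 1 of the 4 wildtype replicates (edgeR adjusted p = 0.0513 to 0.0986). Myt1, a zinc-finger factor that represses progenitor genes, was at 86.9, 79.2, 93.4 and 90.5 CPM in cluster 4 and at 503, 465, 468 and 492 CPM in cluster 5 (log2 fold change 2.47 ± 0.06; edgeR adjusted p = 3.53e-17). Its level in cluster 1 was 149 to 173 CPM, between the others. St18, a relative of Myt1, rose from 19.2 ± 4.17 to 70.8 ± 11 CPM and was at 17.7 CPM in cluster 1. Neurod2 and Tbr1, factors of excitatory neurons, rose by 1.04 and 1.07, the upper-layer gene Cux2 by 1.81 and Sox11, a factor of immature neurons, by 0.73. Myt1l, a factor of later neurons, rose from 297 ± 89.3 to 1097 ± 124 CPM and was higher still in cluster 1, at 2499 to 2992 CPM.

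Genes of migration and axon guidance rose with them: 15 of 19 rose, 1 fell and 3 did not pass, with a median of 0.56. Unc5d, a netrin receptor long used as a marker of the subventricular zone, was at 789, 713, 1163 and 812 CPM in cluster 4 and at 6628, 6871, 7141 and 7977 CPM in cluster 5 (log2 fold change 3.06 ± 0.09; edgeR adjusted p = 4.46e-16). Cluster 1 lay between them, at 2936 to 3503 CPM. The semaphorin receptor genes Plxna4 and Nrp1 rose by 2.61 and 2.04, Robo2, a Slit receptor, by 2.30, and Dcx, the microtubule protein doublecortin, by 1.74. Dab1, which relays the Reelin signal in migrating neurons, fell from 990 ± 84.6 to 399 ± 122 CPM (-1.35 ± 0.10) and was at 2143 to 2940 CPM in cluster 1, so that cluster 5 was the lowest of the 3.

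RNA-binding factors changed in both directions, 11 of 19 rising, 5 falling and 3 not passing, with a median of 0.78. Rbfox3, the splicing factor known as the antigen NeuN, rose from 174 ± 46.8 to 1107 ± 45.1 CPM and Srrm4, which drives neural microexons, from 150 ± 23.4 to 758 ± 24.1 CPM. Elavl4, a neuronal Hu protein, rose from 204 ± 24.5 to 557 ± 68.0 CPM and was lower again in cluster 1, at 209 to 266 CPM. Qk, a splicing factor of progenitors and glia, fell from 2116 ± 169 to 374 ± 27.7 CPM (-2.50 ± 0.06), and the Musashi genes Msi1 and Msi2 by 0.66 and 0.82 on the log2 scale. Nova1, a neuronal splicing factor, fell by 0.94. Of the BAF chromatin remodelling complex, 2 of 4 subunits named for neurons rose, Actl6b by 1.11 ± 0.12 and Ss18l1 by 0.83 ± 0.11. Ss18, the progenitor counterpart of Ss18l1, fell by 0.77 on the log2 scale. Of the other progenitor subunits, Dpf2 rose by 0.27, and Actl6a and Phf10 did not pass. The call of Dpf2 was lost without wildtype replicate 1, 2 or 3 (edgeR adjusted p = 0.0501, 0.150 and 0.118).

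The largest changes were ranked among called genes averaging at least 50 UMIs in a sample and moving alike in 4 of 4 samples. The 15 largest increases included secreted signals, adhesion proteins and a transporter. Tac2, which encodes the neuropeptide neurokinin B, was at 4.15, 2.17, 4.71 and 1.57 CPM in cluster 4 and at 36.9, 82.6, 92.7 and 48.2 CPM in cluster 5 (log2 fold change 4.26 ± 0.20; edgeR adjusted p = 6.83e-13). Cluster 5 samples varied more than 2-fold among themselves, yet all lay far above cluster 4, which held 48 UMIs in all against 582. Slc17a6, the vesicular glutamate transporter VGLUT2, rose from 57.6, 50.2, 73.1 and 49.3 CPM to 481, 592, 522 and 555 CPM (3.23 ± 0.09; edgeR adjusted p = 2.79e-16). The lowest cluster 5 sample was above the highest cluster 4 sample.

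The chemokine gene Cxcl12 rose from 2.97 ± 1.06 to 26.5 ± 7.51 CPM (3.19 ± 0.23), the integrin gene Itga4 from 3.17 ± 2.23 to 27.6 ± 1.99 CPM (3.25 ± 0.24) and the cadherin gene Cdh8 from 145 ± 32.6 to 972 ± 65.0 CPM (2.76 ± 0.08). Nxph4, a neurexin ligand, rose by 2.98, Cemip, a hyaluronan-binding protein, by 3.10 and Clvs1, a lipid-binding protein, by 3.08. The remaining ones were Xkr7, Chst9, Unc5d, Rbfox3, 2600014E21Rik, A530058N18Rik and Gm32647, at 2.70 to 3.39. Itga4 overlaps Cerkl, Cdh8 overlaps Gm15679, Clvs1 overlaps Asph and A530058N18Rik overlaps Gjd2, so some of their UMIs may belong to the neighbour.

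Most of these genes were higher in cluster 5 than in cluster 1 as well. For 14 of the 15, all 4 cluster 5 samples lay above all 4 cluster 1 samples, and the exception was Cemip, which overlapped. Among the 606 genes that rose at least 2-fold, 221 were above cluster 1 in this way, 163 below and 222 overlapping, and among all 11414 genes the counts were 1704, 1656 and 8054. Cxcl12 fell back to 2.44 to 4.19 CPM in cluster 1 and Itga4 to 2.93 to 3.99 CPM, both about their cluster 4 level. Genes were taken for a high cluster 5 level, so the count of 14 carries no test.

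**Figure D5:**
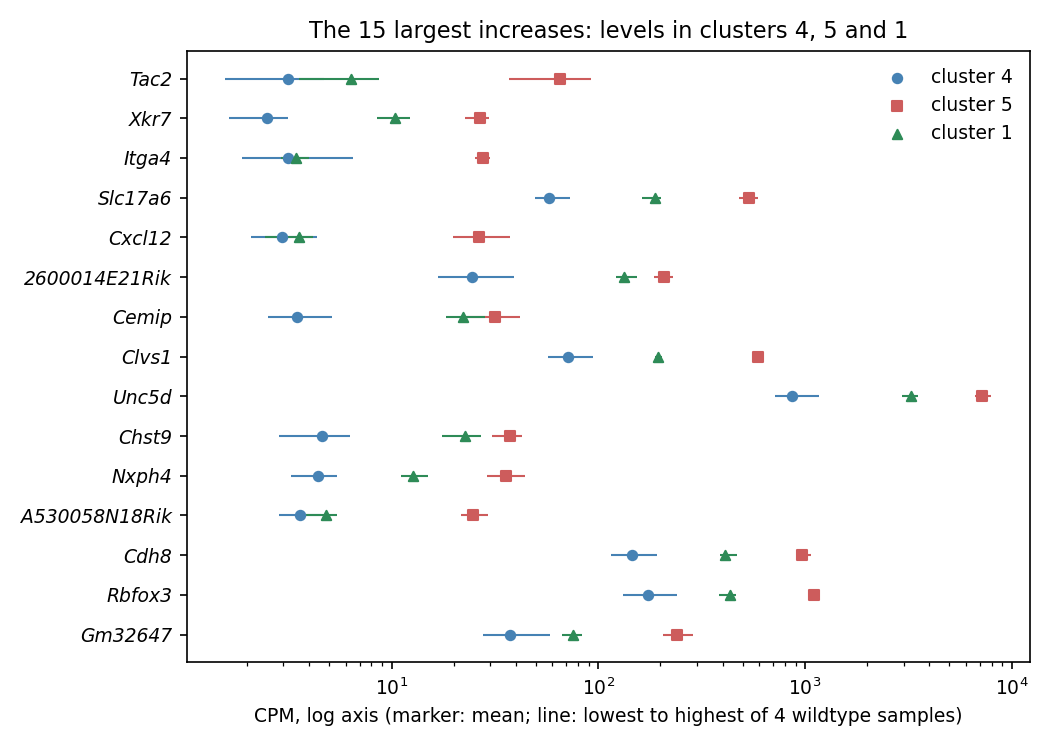
Level (CPM, log axis) of the 15 genes with the largest increase, by the rule in the text, in clusters 4 (circles), 5 (squares) and 1 (triangles) of wildtype samples. Markers give the mean and lines the lowest to highest of 4 samples. Cluster 5 is highest in each gene, and its samples lie clear of cluster 1 in 14 of the 15.

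Over all genes tested, the log2 fold change reached -8.28. Under the same rule of calls, UMIs and direction, the 15 largest decreases were led by Depdc1b. It was at 116, 114, 112 and 126 CPM in cluster 4 and at 1.45, 0.437, 1.71 and 1.51 CPM in cluster 5, a log2 fold change of -6.49 ± 0.17 (edgeR adjusted p = 1.40e-16) from 1800 UMIs in one cluster and 12 in the other. Stil and Kif14, genes of centriole assembly and cytokinesis, fell by 6.17 and 5.85 on the log2 scale, and Kif4, Diaph3 and Cdca2, genes of cell division, and Rmi2, Hrob, Parpbp and Pif1, genes of DNA repair and helicases, by 5.40 to 5.61. Kif4 overlaps Pdzd11. At G1/G0 angle Kif4 and Diaph3 fell too (log2 fold changes of -2.59 and -2.75), and the other 8 of these 10 had too few UMIs to be tested.

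The rest were Plekha7, Plce1, Aldh1l1, Ano1 and Hgf. Plce1, a phospholipase, fell from 492 ± 29.9 to 10.6 ± 2.92 CPM (-5.52 ± 0.10; -5.41 at G1/G0 angle). Aldh1l1, a folate enzyme used as a marker of astroglia, fell by 5.62, with 427 UMIs in cluster 4 and 5 in cluster 5. Ano1, a chloride channel gene, was at 84.3, 25.0, 19.5 and 55.6 CPM in cluster 4 and at most 1.71 CPM in cluster 5, and the cluster 4 samples differed from each other more than 4-fold. Hgf, a growth factor, had 198 UMIs in cluster 4 and 2 in cluster 5, a ratio of 65.1 with a 95% exact interval of 17.8 to 541 that covers counting error only.

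The changed genes were long. The median genomic span was 30.3 kb over all genes tested, 64.6 kb for those that rose at least 2-fold, 50.5 kb for those that fell at least 2-fold and 21.5 kb for those not called. Genes of at least 100 kb made up 18.9% of all, 39.3% of the first set and 31.9% of the second. In the upper level group of genes split into 3 equal parts by mean CPM, the medians were 62.8 kb for all, 148 kb for genes that rose and 123 kb for genes that fell; in the lower group they were 19.04, 27.3 and 31.5 kb. The part of gene length in the changes was not tested.

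Markers of other cell types were summed in the same way. The summed level of 7 interneuron markers was 264 to 311 CPM in cluster 4 and 74.3 to 150 CPM in cluster 5, none of them at 0. Of 6 tested, Erbb4 fell by 1.68 and Gad2 by 0.67 on the log2 scale and 4 did not pass. That of 5 Cajal-Retzius markers was 14.98 to 28.3 CPM in cluster 4 and 71.0 to 107 CPM in cluster 5, where Reln, the secreted migration signal, rose by 2.42 ± 0.11 and Ebf3 by 1.92 ± 0.24. Endothelial and mural markers summed to 36.7 to 40.9 CPM and 11.1 to 19.1 CPM, and of 3 tested Pdgfrb fell by 3.92 and 2 did not pass. Microglial markers summed to 7.49 to 10.1 CPM and 4.46 to 9.99 CPM, and oligodendrocyte precursor markers to 9.80 to 11.8 CPM and 1.67 to 10.8 CPM. The 6 globin genes, which come from blood outside the nuclei, summed to 322 to 560 CPM in cluster 4 and 376 to 676 CPM in cluster 5, 4 of 5 tested rising by at most 0.49 (Hbb-bs by 0.25, a call lost without the sample block, edgeR adjusted p = 0.334). Globin genes are near-identical copies, and their UMIs may be split between them. The part of these cells or of free RNA in the gene changes was not tested.

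Finally, the wildtype step was set beside that of the knockout samples, whose 10181 nuclei in the same clusters gave 6277 called genes of 11591 (54.2%). The median absolute log2 fold change was 0.35 in wildtype and 0.34 in knockout. In edgeR's test of the genotype by cluster interaction, 78 of 11908 genes (0.655%) passed, 63 with a step higher in knockout (0.529%) and 15 with one lower (0.126%), while 1098 had an unadjusted p under 0.05. Of 77 that were also tested in wildtype, 53 had a log2 fold change below 0 in wildtype and above 0 in the interaction, 51 of them called lower in wildtype. The interaction subtracts the wildtype step, so opposite signs are favoured by construction among genes called in it. The share of this pairing over all genes was not counted, so the 53 carry no result about the knockout. The count changed with the libraries kept. It was 21 without wildtype replicate 1 or 4, 39 without wildtype replicate 2 and 44 without wildtype replicate 3. It was 49 without knockout replicate 2, 41 without knockout replicate 3 and 68 to 85 without the others. Leaving out a library also lowers the power of the test, and the part of this in the counts was not tested.

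Among the genes of that interaction, Ntn1, the guidance cue netrin 1, was at 33.4 ± 15.2 CPM in cluster 4 and 10.5 ± 2.15 CPM in cluster 5 of wildtype, and at 9.17 ± 0.391 and 11.03 ± 3.29 CPM in knockout (interaction 1.88 ± 0.27 log2 units, edgeR adjusted p = 0.00291). Gpc6, a glypican that binds growth factors, fell from 1609 ± 38.6 to 1197 ± 137 CPM in wildtype and from 1587 ± 217 to 639 ± 120 CPM in knockout (-0.88 ± 0.10; edgeR adjusted p = 4.08e-04). Zfhx4, a zinc-finger homeobox factor, rose from 173 ± 3.40 to 294 ± 31.8 CPM in wildtype and stood at 194 ± 15.9 and 181 ± 19.3 CPM in knockout (-0.85 ± 0.10; edgeR adjusted p = 9.99e-04). Zfhx4 overlaps 2700069I18Rik. For Ntn1 the genotypes differed in cluster 4, and for Gpc6 and Zfhx4 mainly in cluster 5, a reading of the means that carries no test.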

How the data were processed

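The deposited UMI count matrices, 1 per library, were made by the authors with kallisto and bustools on mm10, per the submitters' processing notes. Cluster numbers, cell cycle angles and doublet scores per nucleus were used as the authors deposited them; how clusters were drawn is not given in the sources used here, and the reported fit removed no nucleus as a doublet. UMIs were summed per sample and cluster and tested in edgeR 4.0.16 (R 4.3.3; TMM, filterByExpr, quasi-likelihood test, Benjamini-Hochberg threshold 0.05) with the sample as a block, since each library gives both sums. The interaction used all 8 samples. G1/G0 ran from 7/4 π to 1/4 π. A test on simulated data recovered 89.5% of 200 genes changed by 1 log2 unit among 11414, with 8 false calls. It had no sample effect, directions at random and far fewer changed genes than were called here. It therefore does not measure the error rate of the real fit. The genes named by size are the 15 largest changes each way among called genes averaging 50 or more UMIs in a sample and moving alike in 4 of 4 samples, and the 5 largest interactions each way; others come from lists. Members and lists were chosen with earlier results of these data known. Alternatives were DESeq2 1.42.0, other size factors, no filter, no sample block, G1/G0 nuclei alone, removal of the 10% of nuclei with the highest doublet scores, and leaving out each sample. Shares of nuclei with a UMI were taken after thinning to 1400 UMIs, and angle shares were tested by exact permutation (scipy 1.17.1). Deposited gene positions, whose build is not named, gave only spans and the overlaps between genes, without strand. No coordinate was printed from them. Further genes named above overlap a neighbour, with which their UMIs may be shared. They are Id4, Mfap4, Ctnnb1, Zeb1, Fgfr2, Wnt7b, Ccnd2, Cdk4, Rb1, Nusap1, Myt1l, Dpf2 and Actl6a.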

Additional observations from a re-analysis of the deposited data

Results flagged for a closer look

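Within the 4 wildtype samples, the step of each named gene and the share of nuclei at each range of cell cycle angle were checked for 1 sample standing apart from the others. Of 147 such groups of 4 values, 10 held one, and chance flags about 1 in 20 groups. The steps, as log2 differences of CPM with 0.5 added, were -5.05 in replicate 4 for Cdca2, -1.16 in replicate 2 for Cdk6, 1.00 in replicate 4 for Cdkn1c, -4.69 in replicate 3 for Crb2 and 0.18 in replicate 3 for Hes6. They were 1.99 in replicate 3 for Itga4, where the others lay at 3.31 to 3.57, and 0.45 in replicate 1 for Mcm7. Replicate 3 also stood apart for Nova1 at -0.34, Robo2 at 1.87 and Sox11 at 0.59.

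Where the step differed between genotypes by the edgeR interaction test, the log2 difference (knockout minus wildtype) was 2.58 for Otx2os1, 1.88 for Ntn1, 1.80 for Adam12, 1.74 for Gpc5 and 1.69 for Man1c1. It was -1.46 for Chd1l, -1.12 for Shisa9, -0.88 for Gpc6, -0.85 for Zfhx4 and -0.71 for Eya1. The calls of Ntn1, Man1c1, Gpc6 and Zfhx4 passed without any 1 library, and those of the other 6 were lost without at least 1. Otx2os1 overlaps Otx2, with which its UMIs may be shared.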

How the results depend on the processing

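No count of the wildtype step moved by more than 1.5 times under other size factors, without TMM, without the filter, without the sample block, without the nuclei of highest doublet score or without any 1 wildtype sample. Without TMM, 38.6% of called genes were higher against 48.1%. DESeq2 called 2067 genes higher, and edgeR's test against a fold of 2 called 374. Nuclei at G1/G0 angle alone, which are fewer, gave 2444 calls, 1085 higher and 1359 lower, of which 393 and 805 had a fold of at least 2. There the log2 fold change turned to 0.23 for Cux1, 0.76 for Cdk1, -0.57 for Btg2, -0.47 for Gadd45g, -0.074 for Wnt7b, -0.056 for Neurog2, 0.16 for Mki67 and 0.12 for Top2a, and the interaction to 0.41 for Shisa9; the cause was not tested. Without thinning, which keeps more UMIs, the difference in share of nuclei was -10.8 points for Pax6, -10.3 for Hes5, 10.0 for Eomes, -22.8 for Mki67 and -46.7 for Top2a. Weak calls were lost in several settings: Cux1, Numb, Btg2, Rb1, Ctnnb1, Mcm7, Dpf2 and Dll1 in DESeq2 (adjusted p = 0.0833 to 0.272), Rb1, Btg2, Ctnnb1 and Dpf2 without TMM, Cux1, Fabp7, Btg2, Hbb-bs, Ctnnb1, Dpf2, Mcm7 and Dll1 without the sample block, and Cux1, Btg2, Dpf2, Ctnnb1 and Dll1 without the nuclei of highest doublet score. For the interaction, DESeq2 called 28 genes, 20 higher and 8 lower. Leaving out 1 library gave 21 to 85 calls, 18 to 64 higher and 3 to 21 lower.

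Without the sample block, 5797 genes of the wildtype step passed. A replicate block pairing wildtype and knockout samples by number gave 86 interaction calls, 67 higher and 19 lower; same-numbered samples deviated together with correlations of -0.10 to 0.09, so the numbers only name samples. Low counts limit the cluster 5 values of lost genes, and depth limits shares of nuclei.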
